A study of Mus musculus with 10 samples.

Results

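Insulin-like growth factor 1 (IGF-1) circulates bound to carrier proteins, and the liver makes most of the hormone and several of the carriers. The genes described are Igf1 with 5 of its carriers (Igfals, Igfbp1, Igfbp2, Igfbp3 and Igfbp4), and the insulin receptor Insr with its substrates Irs1 and Irs2 and the transcription factor Foxo1, which insulin signalling restrains. They were chosen by symbol, all 10 were found among the 47702 genes of the deposited table, and all 10 passed the filter on low values. Livers came from female mice with a full body knockout of Etnppl (KO) and from wild-type females (WT), both on a chow diet for 20 weeks. Each genotype had 5 poly-A RNA libraries, and levels are in FPKM, a scale relative to transcript length and library total, on which different genes can be compared. Etnppl encodes ethanolamine-phosphate phospho-lyase. The strain, the targeted exons and the animals' feeding state or time of day at harvest are not given in the sources used here.

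In the circulation most IGF-1 sits in a large complex with IGFBP-3 (or IGFBP-5) and the acid-labile subunit, encoded by Igfals, which keeps the hormone in the blood for longer. IGFBP-1 is a smaller, short-lived carrier made mainly by hepatocytes. Insulin represses Igfbp1 transcription through AKT, which keeps FOXO1 out of the nucleus, while growth hormone drives Igf1 and Igfals through its receptor and STAT5.

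The labels were first checked on the targeted gene. Etnppl was at 26.4, 21.97, 18.9, 25.7 and 17.7 FPKM in KO livers, against 60.3, 69.7, 108.4, 47.2 and 43.3 FPKM in WT livers, so the groups did not overlap (log2 difference -1.49, SE 0.23, limma adjusted p = 0.00504). Transcript thus remained in every KO library. Albumin marked all libraries as liver, with 43188 to 44898 FPKM in KO and 39869 to 41786 FPKM in WT. Total reads were not analysed here. The depth of the libraries relative to one another, read from 28 genes at the level of 1 fragment, spanned 0.9 to 1.07 in KO and 0.99 to 1.09 in WT. Spearman correlations across genes were 0.977 to 0.988 within a genotype. One WT library stood apart: WT 3 had 1.07 FPKM of Cyp3a16 and 35.2 FPKM of Cyp3a44, female-biased cytochromes P450 chosen here after their values were seen, against 34.1 to 86.6 and 119.9 to 147.4 FPKM in the other WT livers. The KO livers had 0.16 to 2.65 FPKM of Cyp3a16. Values without WT 3 are given beside those of Igfals, Igfbp1, Igf1, Irs1, Igfbp6 and Mlxipl.

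2 of the 10 genes changed. Igfbp1 rose and Igfals fell, while Igf1, Igfbp2, Igfbp3, Igfbp4, Insr, Irs1, Irs2 and Foxo1 did not pass the test (limma, adjusted p under 0.05 over all 12247 genes tested). Over all genes tested 8.54% were called, 3.98% as higher and 4.56% as lower in KO. For none of the 10 were the 5 KO and 5 WT values fully apart, while 8.87% of all genes tested had such values, 4.08% with KO above and 4.78% with KO below. The median log2 difference was -0.11 over the 10 genes and -0.02 over all genes tested, and the median absolute difference was 0.12 in both sets. Both calls were made again in each of the 10 fits that left out 1 library. These are bulk livers, in which fewer cells of a type and less RNA per cell cannot be told apart.

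**Figure D1:**
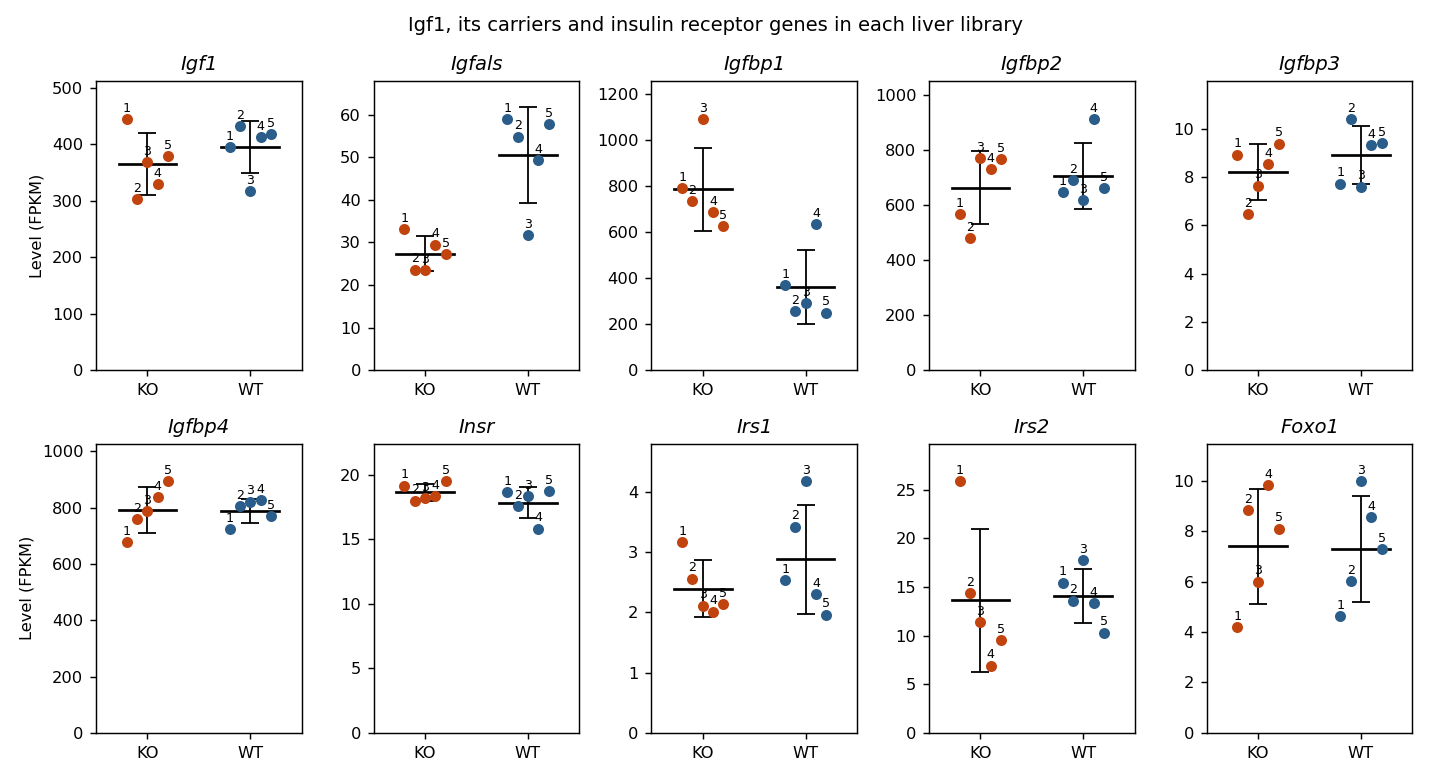
Level in FPKM (vertical axes, from 0, a scale for each gene) of the 10 genes in the 5 KO (left) and 5 WT (right) liver libraries. Points are libraries with their replicate number, the line is the mean and the bar 1 SD. Igfbp1 is higher in KO with WT 4 reaching the KO range, and Igfals is lower in KO with WT 3 reaching it.

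Igfbp1 (ENSMUSG00000020429, plus strand, chr11:7197782-7202546 in GRCm38) was at 789, 733, 1092, 686 and 627 FPKM in KO livers, against 369, 258, 291, 635 and 250 FPKM in WT livers. All KO libraries lay above 4 of the WT libraries, and only WT 4 reached into the KO range, above KO 5. The mean was 785 ± 181 FPKM in KO and 361 ± 160 FPKM in WT (SD, n = 5 each). The log2 difference of 1.19 (SE 0.25, limma adjusted p = 0.0199) corresponds to a 2.28-fold higher level, with a 95% interval from 1.55 to 3.36. Without WT 4 the log2 difference was 1.42 (limma adjusted p = 0.00229), and without WT 3 it was 1.14 (limma adjusted p = 0.0372). By mean level Igfbp1 stood at rank 99 of the genes tested in KO and at rank 221 in WT.

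The Igfbp1 promoter is shown because it holds the element that is known, in the human and rat genes, to confer repression by insulin. The window runs from 250 bases before to 50 bases after the RefSeq start (GRCm38.p6, chr11:7197537-7197836, plus strand). Capitals mark the letters CAAAACA and TATTTTG with the 4 bases between them, from 108 to 91 bases before the start.

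Igfbp1: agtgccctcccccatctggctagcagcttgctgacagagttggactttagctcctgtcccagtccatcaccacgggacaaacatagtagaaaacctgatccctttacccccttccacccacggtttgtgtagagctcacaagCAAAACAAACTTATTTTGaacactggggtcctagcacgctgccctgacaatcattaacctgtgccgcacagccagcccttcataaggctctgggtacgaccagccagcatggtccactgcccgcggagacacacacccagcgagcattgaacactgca

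The core CAAAACA, searched on both strands, was present in 6.28% of 32851 promoter windows of this length. Among the 12 windows of the 9 genes matched in the RefSeq table, those of Igfbp1, Irs1 and Irs2 held it, in Irs1 and Irs2 on the opposite strand. CAAAACA followed after 4 bases by TATTTTG, a spacing taken from the Igfbp1 window itself, was found in 1 of the 32851 windows, that of Igfbp1. A match of letters is a description of the sequence and does not show that a factor was bound there. Of the 3 genes with the core, Igfbp1 was called and Irs1 and Irs2 were not.

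Igfals (ENSMUSG00000046070, plus strand, chr17:24865997-24882010 in GRCm38), which encodes the acid-labile subunit, was at 33.1, 23.6, 23.5, 29.5 and 27.25 FPKM in KO livers, against 59.0, 54.85, 31.65, 49.3 and 57.75 FPKM in WT livers. Only WT 3 reached the KO range, where it lay between KO 4 and KO 1. The mean was 27.4 ± 4.09 FPKM in KO and 50.5 ± 11.2 FPKM in WT (SD, n = 5 each), a ratio of 0.542. On the log2 scale it fell by 0.85 (SE 0.16, 95% interval from -1.21 to -0.49, limma adjusted p = 0.0127). Without WT 3 it was -1.01 (limma adjusted p = 0.000695).

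RefSeq gives Igfals more than one start, and the window of one of them is shown because it holds a match to the letters TTCNNNGAA, the form of site that STAT factors recognise. It lies at chr17:24877981-24878280 (GRCm38.p6, plus strand). Capitals mark that match, 58 to 50 bases before the start, and the forkhead letters GTAAACA on the opposite strand, 242 to 236 bases before it.

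Igfals: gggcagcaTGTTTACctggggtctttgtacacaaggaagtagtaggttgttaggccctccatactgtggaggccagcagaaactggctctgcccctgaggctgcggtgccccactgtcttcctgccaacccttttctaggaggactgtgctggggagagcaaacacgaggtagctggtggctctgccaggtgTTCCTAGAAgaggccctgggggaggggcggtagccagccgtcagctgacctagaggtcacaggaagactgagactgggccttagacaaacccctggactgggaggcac

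TTCNNNGAA, which reads the same on both strands, was present in 8.3% of the 32851 windows. Among the 12 windows of the 9 matched genes it was present in 2, both of Igfals. GTAAACA was present in 3.65% of all windows and in 1 of the 12, the one shown.

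Igf1 itself was not called. Its level was 445, 303, 368, 329 and 379 FPKM in KO livers, against 395, 432, 317, 413 and 418 FPKM in WT livers. The groups overlapped widely, with the highest value in KO 1 and the lowest in KO 2. The log2 difference of -0.12 had a 95% interval from -0.36 to 0.12 (limma adjusted p = 0.546), which leaves room for a level in KO between 0.782 and 1.09 times that in WT. Without WT 3 the log2 difference was -0.20 (limma adjusted p = 0.24). An antisense gene, Igf1os, overlaps Igf1 and averaged 0.962 FPKM.

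Relative to Igf1 in the same library, both carriers set the genotypes apart, by narrow margins. The Igfals level was 0.0638 to 0.0896 of the Igf1 level in KO and 0.0997 to 0.149 of it in WT. Igfbp1 was at 1.65 to 2.97 times the Igf1 level in KO and at 0.597 to 1.54 times in WT. Neither ratio overlapped between the genotypes, although the levels of Igfbp1 and Igfals alone did. Both ratios were chosen after the single levels were known, so no test was made on them. The level of Igfbp1 was 23.0 to 46.5 times that of Igfals in KO and 4.33 to 12.9 times in WT.

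**Figure D2:**
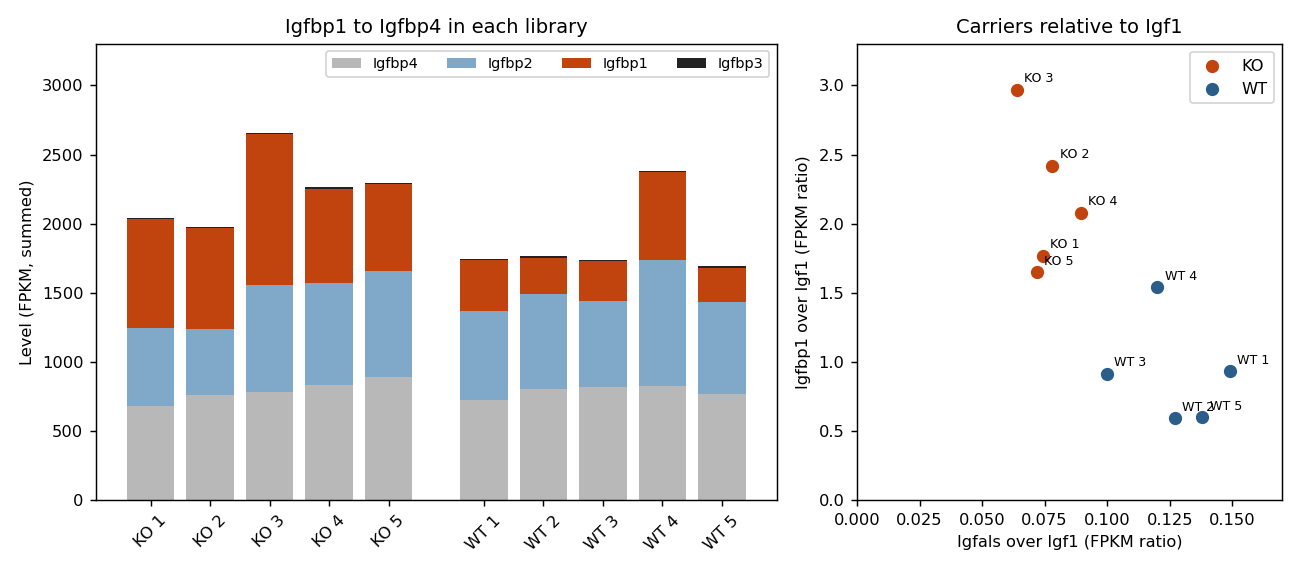
Left, FPKM of Igfbp4, Igfbp2, Igfbp1 and Igfbp3 stacked for each KO (left) and WT (right) library. Right, the FPKM ratio of Igfbp1 to Igf1 (vertical axis) against that of Igfals to Igf1 (horizontal axis) in each library; the KO libraries lie up and to the left of the WT libraries.

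The other binding proteins did not pass the test. Igfbp2, a carrier that is abundant in liver, was at 567, 479, 771, 731 and 766 FPKM in KO livers, against 646, 690, 618, 914 and 663 FPKM in WT livers. The groups overlapped, and the log2 difference was -0.10 (95% interval from -0.43 to 0.22, limma adjusted p = 0.728). WT 4 was highest in Igfbp2 as it was in Igfbp1 among WT livers.

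Igfbp4, a binding protein that inhibits IGF action, was the most even of the carriers, with 679, 760, 786, 837 and 893 FPKM in KO livers and 723, 806, 821, 825 and 771 FPKM in WT livers. Its log2 difference was -0.001 (95% interval from -0.16 to 0.16, limma adjusted p = 0.995), and its sign turned under other scalings.

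Igfbp3, the partner of the acid-labile subunit, was far less abundant in liver RNA, at 8.93, 6.46, 7.65, 8.55 and 9.39 FPKM in KO livers and 7.73, 10.4, 7.61, 9.34 and 9.42 FPKM in WT livers. Its log2 difference was -0.11 (95% interval from -0.36 to 0.13, limma adjusted p = 0.582). Igfbp3 is the next gene to Igfbp1 on chromosome 11. The 2 genes point towards each other with 3.5 kb between their ends and no annotated gene in between, so that of these neighbours one was called and the other was not.

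The sum of the 4 binding proteins overlapped between the genotypes, and their shares of it are given as a description, with no test. The summed level of Igfbp1, Igfbp2, Igfbp3 and Igfbp4 was 2247 ± 267 FPKM in KO and 1865 ± 291 FPKM in WT (SD, n = 5 each), and the groups overlapped because WT 4 reached 2383 FPKM. Igfbp1 made up 27.3% to 41.1% of that sum in KO and 14.6% to 26.6% in WT. The share of Igfbp2 was 24.2% to 33.4% in KO and 35.6% to 39.1% in WT, and that of Igfbp4 was 29.6% to 38.9% in KO and 34.6% to 47.3% in WT. Because the shares are parts of the same sum, a higher Igfbp1 lowers the other shares even at unchanged levels of those genes. By mean level the order in KO was Igfbp4, Igfbp1, Igfbp2 and Igf1, and in WT it was Igfbp4, Igfbp2, Igf1 and Igfbp1. In KO the ranges of the 3 binding proteins overlapped one another, and in WT those of Igfbp4 and Igfbp2 did, as did those of Igf1 and Igfbp1 and, through WT 4, of Igfbp1 and Igfbp2. Below these the order was Igfals, Insr, Irs2, Igfbp3, Foxo1 and Irs1 by mean in both genotypes. Of these neighbours Insr and Irs2, Irs2 and Igfbp3, and Igfbp3 and Foxo1 overlapped in range in both genotypes, while Igfals and Insr, and Foxo1 and Irs1, did not overlap in either.

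The insulin receptor and its substrates did not pass the test. Insr was at 19.1, 18.0, 18.2, 18.3 and 19.5 FPKM in KO livers, against 18.7, 17.55, 18.3, 15.8 and 18.7 FPKM in WT livers. Its coefficient of variation within a genotype was 5.12%, lower than in all but 7.22% of the genes tested, and its log2 difference of 0.06 had an interval from -0.06 to 0.19 (limma adjusted p = 0.542).

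Irs2, the insulin receptor substrate whose transcript is high in fasting liver, was at 25.8, 14.4, 11.4, 6.92 and 9.52 FPKM in KO livers, against 15.45, 13.6, 17.8, 13.4 and 10.3 FPKM in WT livers. Both the highest and the lowest values were in KO, and the coefficient of variation was 54% in KO and 19.6% in WT. Its interval was wide, from -0.82 to 0.49 around a log2 difference of -0.17 (limma adjusted p = 0.781), so that at this spread a change of up to 0.567-fold or 1.4-fold could not be told from none.

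Irs1, the other main substrate, was low, at 3.16, 2.56, 2.11, 2.01 and 2.13 FPKM in KO livers and 2.53, 3.42, 4.17, 2.3 and 1.96 FPKM in WT livers (log2 difference -0.20, 95% interval from -0.58 to 0.18, limma adjusted p = 0.532). Without WT 3, the highest library in Irs1, the difference was -0.07 (limma adjusted p = 0.821). Irs2 exceeded Irs1 in every library.

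Foxo1 was at 4.2, 8.83, 6.0, 9.84 and 8.1 FPKM in KO livers, against 4.64, 6.01, 9.97, 8.56 and 7.3 FPKM in WT livers. Both genotypes spanned nearly the same range, and the log2 difference was 0.01 (95% interval from -0.52 to 0.53, limma adjusted p = 0.99). Foxo1 lies on chromosome 3, as Etnppl does, with 78.3 Mb between them. KO 1 was lowest in Foxo1 and highest in Irs2 of all libraries.

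**Figure D3:**
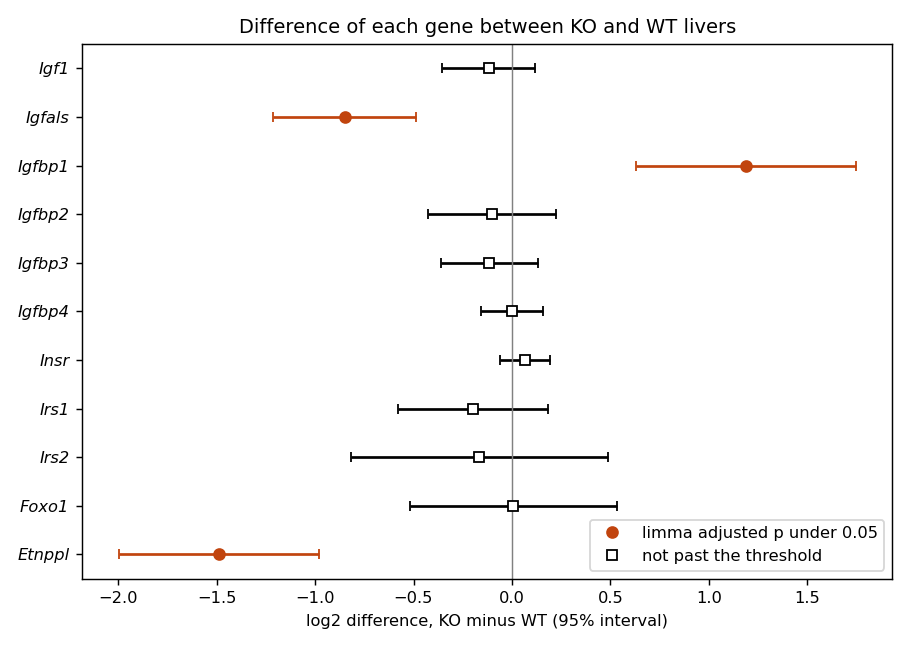
Log2 difference in level between KO and WT livers (horizontal axis, KO minus WT) for the 10 genes and for Etnppl, with 95% intervals from limma. Filled circles passed an adjusted p of 0.05 and open squares did not; among the 10 genes Igfbp1 (1.19) and Igfals (-0.85) lie away from 0.

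Genes around these 10 were counted in 6 lists of 121 genes, 104 of which were tested. In all, 5 were higher and 8 lower in KO (12.5% called, against 8.54% of all genes), and their median log2 difference was -0.08. The number higher was 3 without KO 1, KO 2, KO 3, KO 5, WT 4 or WT 5. The number lower was 2 without KO 1, KO 3 or WT 5, 3 without KO 2, KO 5 or WT 1, 4 without KO 4 or WT 4, and 5 without WT 2. It was 5 after median-of-ratios or upper-quartile scaling and 3 after quantile normalization.

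Of the other genes of the IGF axis, 5 of 15 were expressed highly enough to be tested, and 1 fell and 4 did not pass (20% called, against 8.54% of all genes). Igfbp5, the other partner of the acid-labile subunit, was at 0.66, 0.85, 0.85, 1.01 and 1.0 FPKM in KO livers, against 1.25, 1.29, 1.41, 1.33 and 1.18 FPKM in WT livers. The groups did not overlap, as in 8.87% of all genes tested, and on the log2 scale KO minus WT was -0.39 (SE 0.10, limma adjusted p = 0.0354). Leaving out KO 4 or KO 5 kept the call, and leaving out any of the other 8 libraries lost it (limma adjusted p up to 0.0709). Igfbp5 is the next gene to Igfbp2, with 5.5 kb between them. Igf2r, the receptor that clears IGF-2, was at 5.27 ± 0.369 FPKM in KO and 4.94 ± 0.345 FPKM in WT, and Htra1 (-0.20) and Igfbp6 (0.24, and 0.08 without WT 3) were also not called. The receptor Igf1r (0.3 ± 0.0579 FPKM in KO, 0.392 ± 0.213 FPKM in WT) and the fetal factor Igf2 (0.252 ± 0.198 and 0.158 ± 0.106 FPKM) were below the level for testing.

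Of 11 genes that carry or limit the growth hormone signal to Igf1 and Igfals, 1 fell and 10 did not pass (9.09% called, near the 8.54% of all genes), with a list median of -0.21 on the log2 scale. The growth hormone receptor Ghr was at 103, 103, 96.0, 108.6 and 94.1 FPKM in KO livers, against 118, 130.2, 155.7, 109.1 and 120.9 FPKM in WT livers. The groups were separated by a narrow margin between KO 4 and WT 4 (log2 difference -0.32, SE 0.09, limma adjusted p = 0.0431). Leaving out WT 3 or WT 4 kept the call, and leaving out any of the other 8 libraries lost it (limma adjusted p up to 0.0988). It was also lost after upper-quartile scaling or quantile normalization, and with no filter on low values. The prolactin receptor Prlr (-0.38, limma adjusted p = 0.0608), the feedback inhibitor Socs3 (-0.44, limma adjusted p = 0.078) and Stat5a (-0.33, limma adjusted p = 0.14) were not called. Prlr passed the test without WT 2 (limma adjusted p = 0.0332), with a minimum mean of 5 FPKM (0.0493) and with library weights (0.0414). Stat5b, the main STAT5 of liver, was at 11.3 ± 1.85 FPKM in KO and 12.1 ± 1.59 FPKM in WT, and Socs2, a target of growth hormone, at 17.2 ± 4.59 and 22.7 ± 9.77 FPKM (SD, n = 5 each; both named after their values were seen). WT 3 had the highest Ghr and the lowest Socs2 of all libraries, and the lowest Igf1 and Igfals among WT livers.

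Of 17 tested adaptors and phosphatases at the insulin receptor, 1 rose, 2 fell and 14 did not pass (17.6% called, against 8.54% of all genes). Grb14, an adaptor that binds the active insulin receptor and inhibits its kinase, was at 50.1, 50.6, 56.0, 53.7 and 50.3 FPKM in KO livers, against 36.8, 30.6, 39.9, 36.2 and 31.0 FPKM in WT livers. The groups lay well apart, and the 1.49-fold higher level (log2 difference 0.58, SE 0.08, limma adjusted p = 0.00181) was called whichever library was left out. Enpp1, a membrane enzyme that also binds the insulin receptor and inhibits it, fell to 7.84 ± 0.526 FPKM in KO, against 10.97 ± 0.892 FPKM in WT (SD, n = 5 each; log2 difference -0.46, SE 0.07, limma adjusted p = 0.00432). This too held without any 1 library. Ceacam1, which promotes insulin uptake and clearance by hepatocytes, fell by 0.20 on the log2 scale (limma adjusted p = 0.034). It was not called without KO 1, KO 3, KO 4, KO 5, WT 1, WT 2 or WT 5 (up to 0.0767). The call was also lost after quantile normalization and with no filter on low values. Gab1 (-0.19, limma adjusted p = 0.149) was not called.

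Of 32 tested genes of the PI3K, AKT and TOR branch, 2 rose, 4 fell and 26 did not pass (18.8% called, against 8.54% of all genes). Akt1 and Akt2, named after their values were seen, were among the 26. Trib3, a pseudokinase that binds AKT and restrains it, is also a target of the stress factor ATF4. It rose to 10.2 ± 2.69 FPKM in KO, against 4.17 ± 0.529 FPKM in WT (SD, n = 5 each; log2 difference 1.16, limma adjusted p = 0.0016). Eif4ebp1 and Eif4ebp2 encode translation repressors that TOR inactivates. Eif4ebp2 fell to 63.6 ± 3.58 FPKM in KO, against 77.3 ± 5.13 FPKM in WT (log2 difference -0.28, limma adjusted p = 0.0157), while Eif4ebp1 rose by 0.33 (limma adjusted p = 0.045). Tsc1 (-0.26), Deptor (-0.24), both inhibitors of TOR complexes, and the kinase Sgk2 (-0.33) fell by limma (adjusted p = 0.0399, 0.0494 and 0.048). Trib3 and Eif4ebp2 were called whichever library was left out. The others lost the call without most single libraries: Eif4ebp1 without all but WT 2 and WT 3 (limma adjusted p up to 0.0978), Tsc1 without all but WT 2 (up to 0.09), Sgk2 without all but KO 4, WT 1 and WT 2 (up to 0.105) and Deptor without all but WT 3 (up to 0.113). Tsc1, Sgk2 and Deptor also lost it after median-of-ratios scaling and quantile normalization, and Sgk2 and Deptor after upper-quartile scaling. With no filter on low values all of these and Eif4ebp1 lost it. Sgk2 lost it with library weights too, and Deptor with a non-robust fit.

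None of 24 tested FOXO genes and genes that FOXO factors induce, Igfbp1, Irs2 and Insr being counted above, passed the limma test, where 8.54% of all genes did. An unadjusted p under 0.05 was found for 4, Sesn3 (-0.27), Foxo4 (-0.21) and Sesn1 (-0.31) on the lower side and Pck1 (0.25) on the higher side. Pck1, the cytosolic enzyme of gluconeogenesis, was at 2026, 2080, 2230, 2060 and 2310 FPKM in KO livers, against 1542, 2018, 2108, 1863 and 1523 FPKM in WT livers (limma adjusted p = 0.121). G6pc, the last enzyme of glucose release, was at 342 ± 92.7 FPKM in KO and 325 ± 50.6 FPKM in WT (log2 difference 0.04, 95% interval from -0.40 to 0.47; named after its values were seen).

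Of 16 tested genes that insulin induces in liver, 2 rose and 14 did not pass (12.5% called, against 8.54% of all genes), and the list median was -0.14. Elovl6 (0.46, limma adjusted p = 0.0104) and Acaca (0.42, limma adjusted p = 0.0371), enzymes of fatty acid synthesis and elongation, rose. Elovl6 lies 1.0 Mb from Etnppl on chromosome 3. It was called whichever library was left out, while Acaca was not called without KO 1, KO 2, KO 3, KO 5, WT 2, WT 4 or WT 5 (up to 0.0842), nor with no filter on low values. Srebf1, the insulin-driven regulator of lipid synthesis, was at 6.23 ± 3.1 FPKM in KO and 10.3 ± 4.86 FPKM in WT (-0.68, limma adjusted p = 0.265), and Mlxipl at 60.6 ± 2.99 and 69.4 ± 8.04 FPKM (SD, n = 5 each; -0.19, limma adjusted p = 0.164). Mlxipl passed the test without WT 3 (-0.25, limma adjusted p = 0.0379).

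**Figure D4:**
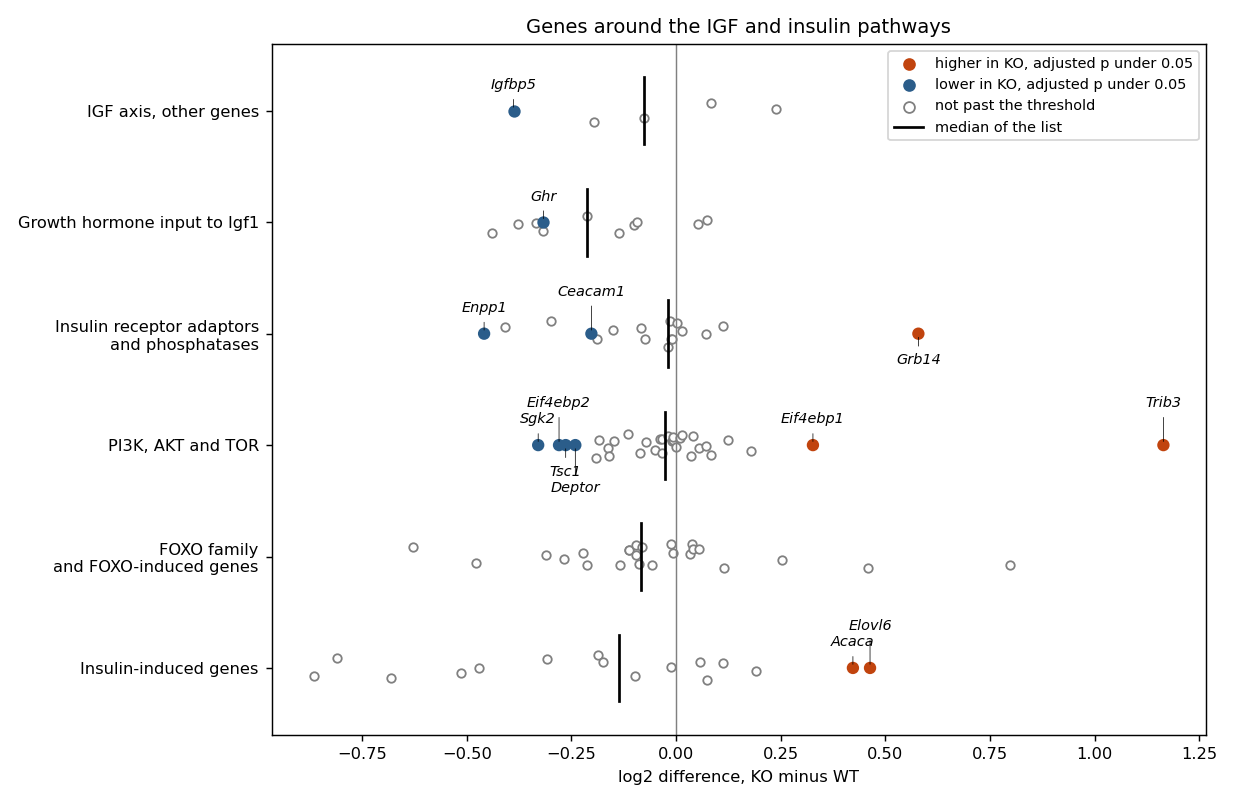
Log2 difference between KO and WT livers (horizontal axis, KO minus WT) of each tested gene in the 6 lists. Filled points passed an adjusted p of 0.05 and are named, open points did not, and the vertical bar is the list's median; Trib3 lies farthest to the right, and no point of the FOXO list is filled.

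Spread within a genotype differed between these groups of genes. The median coefficient of variation within a genotype was 18.2% for the FOXO list and 19.8% for the insulin-induced list, against 7.46% for the receptor adaptors and 11.8% for all genes tested. Among the 10 genes it was 36.8% for Irs2, 33.8% for Igfbp1 and 29.7% for Foxo1. A call therefore needed a larger difference in these genes than in Insr or Igfbp4.

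Markers of other liver cells were read beside these results. Of 12 Kupffer cell markers, 5 fell, none rose and 7 were not called (41.7% called, against 8.54% of all genes). Their summed level was 207 to 299 FPKM in KO and 297 to 345 FPKM in WT. Clec4f, C1qa and Vsig4 fell by 0.51, 0.46 and 0.43 on the log2 scale. Marco, named after its values were seen, was the only 1 of the 12 with a positive difference (0.75, limma unadjusted p = 0.0446, adjusted p = 0.191). No sinusoidal endothelial marker passed the limma test of 13 tested, where 8.54% of all genes did (3 at an unadjusted p under 0.05, Tek, Stab2 and Fcgr2b, all lower). The sums were 199 to 221 FPKM in KO and 214 to 223 FPKM in WT. Of 13 stellate cell markers Reln fell (-0.26) and 12 were not called, among them Dcn (-0.17) and Hgf (-0.20). That is 7.69% called, near the 8.54% of all genes. The sums were 254 to 293 FPKM in KO and 259 to 360 FPKM in WT. Of 5 tested cholangiocyte markers Sox9 fell (-0.56) and 4 were not called, among them Spp1 (-0.22) (20% called, against 8.54% of all genes). Sox9 was near the 0.5 FPKM of the filter, at 0.32 to 0.86 FPKM in KO and 0.76 to 1.16 FPKM in WT. The sums, over all 7 listed markers, were 20.7 to 27.99 FPKM in KO and 24.7 to 29.65 FPKM in WT. No lymphocyte marker passed the limma test of 9 tested, where 8.54% of all genes did (3 at an unadjusted p under 0.05, Nkg7, Jchain and Igkc, all lower). The sums, over all 12 listed markers, were 22.6 to 38.4 FPKM in KO and 32.8 to 65.5 FPKM in WT. Nkg7 passed the test without KO 3 (-0.71, limma adjusted p = 0.0164). Of 12 hepatocyte markers, Cps1 (0.58), Apoa2 (0.26) and Ahsg (0.38) rose and 9 did not pass (25% called, against 8.54% of all genes). Of the 9, 3 were lower at an unadjusted limma p under 0.05. These were Hnf4a (-0.30), Fgb (-0.22) and Serpina1c (-0.22), named after their values were seen. Of the 12, 7 had a positive and 5 a negative difference. The sums were 90020 to 97550 FPKM in KO and 83090 to 89630 FPKM in WT. They mostly reflect a few very abundant transcripts. Albumin alone, not called, was at 43188 to 44898 FPKM in KO and 39869 to 41786 FPKM in WT. No marker of hepatocytes, Kupffer, endothelial, stellate or cholangiocyte cells was at 0 in any library, and of the lymphocyte markers Cd8a was listed at 0 in KO 2. Of these marker calls, Reln was lost when any library other than WT 3 was left out (limma adjusted p up to 0.105) and after median-of-ratios scaling or quantile normalization. Sox9 was lost when any other than KO 1 and WT 5 was left out (up to 0.0777). Ahsg was lost when any other than KO 1, KO 2 and WT 4 was left out (up to 0.0985), Apoa2 without KO 4 (0.0505), and both after quantile normalization. The part of these markers in the differences of Igfals, Igfbp1 and Igfbp5 was not tested.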

How the data were processed

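Per the labels, poly-A liver RNA of 5 KO and 5 WT samples underwent paired-end sequencing. The authors deposited 1 table of FPKM per gene and library. The submitters' processing notes list mm10, RSEM, STAR, DESeq2, DESeq and R 4.0.2 with no roles; the annotation release and strand setting are not given in the sources used here. Because FPKM scales to the library total, abundant transcripts that rise lower the others. The labels do not say that each sample is 1 animal, so p-values cover only the spread seen here, which may be technical.

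Values were used as log2(FPKM + 0.5), which understates fold changes of low genes. Genes averaging 0.5 FPKM or more went into a two-sided test with limma 3.58.1 (R 4.3.3), with genotype as the only term and a robust, trended eBayes step, adjusted by Benjamini-Hochberg over all 12247 genes. The fit was tested on simulated data. The 10 members, the gene lists and the tests were chosen with earlier results of these data known. In each list the 4 genes with the smallest p and its called genes are named (3 in marker lists); others are said to be named after their values were seen. Some listed genes are not reported here. Gene positions came from GENCODE M21 and promoters from RefSeq (GRCm38.p6); both are of the assembly of mm10. Python 3.11.15 and matplotlib 3.10.9 drew the figures.

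Alternatives were other pseudocounts (0.1 and 1), filters (none and a mean of 5 FPKM), 3 scalings, a non-robust fit, library weights, the replicate block, a fold minimum and each library left out in turn.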

Additional observations from a re-analysis of the deposited data

Results flagged for a closer look

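Each genotype's 5 values of 55 genes, the 10 genes, Etnppl and the genes named from the lists by rule, were scanned for a single library lying far outside the rest. This was so in 3 of 110 groups, where chance alone gives about 1 in 20, or 5.5. Igfbp2 was at 913.86 FPKM in WT 4, against 618 to 690 FPKM in the other WT libraries. Igf2r was at 4.35 FPKM in WT 3, against 4.99 to 5.21 FPKM in the other WT libraries. KO 4 had 8.84 FPKM of Acaca, against 11.1 to 11.8 FPKM in the other KO libraries.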

How the results depend on the processing

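Igfbp1 (log2 difference 1.14 to 1.23, limma adjusted p up to 0.0442) and Igfals (-0.90 to -0.82, up to 0.0264) were called under all 11 other settings, the replicate block included, and without any 1 library (1.06 to 1.42, up to 0.0485, and -1.01 to -0.79, up to 0.0341). The 1 member higher and the 1 lower therefore stayed 1 and 1 throughout. Etnppl ranged from -1.62 to -1.29 without 1 library. Igfbp4, with a log2 difference near 0, turned to 0.017 after median-of-ratios scaling, 0.011 after upper-quartile scaling, 0.013 after quantile normalization and 0.018 with library weights. Without 1 library Igfbp4 ranged from -0.046 to 0.053, Igfbp2 from -0.16 to 0.0092, Irs2 from -0.43 to 0.032 and Foxo1 from -0.13 to 0.18, so their signs turned; none was called.

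Over all genes 488 were higher and 558 lower. Testing all 21111 genes without a filter gave 294 and 370, the replicate block gave 230 and 321, and requiring a log2 change of 0.5, which can only remove genes, gave 132 and 199. Without 1 library, which leaves fewer samples, they ranged from 258 to 454 and from 316 to 541. The share of calls that were higher was 46.7%, but 53.6% with median-of-ratios scaling, 50.9% with upper-quartile scaling and 56.1% with quantile normalization. Of the list genes, 5 higher and 8 lower became 3 and 3 without the filter, 3 and 3 with the replicate block, and 2 and 0 with the fold minimum; 8 lower became 5, 5 and 3 after the 3 scalings. Without 1 library they ranged from 3 to 6 and from 2 to 6. With the replicate block Elovl6 (limma adjusted p = 0.0516), Acaca, Igfbp5, Ghr, Ceacam1, Tsc1, Sgk2, Deptor, Ahsg, Reln and Sox9 were not called (up to 0.103), and Prlr was (0.0326). The cause of these moves was not tested. Deviations of same-numbered KO and WT libraries correlated with r from -0.207 to 0.208 over 5 pairs, and 2 of 5 KO libraries correlated best with their own number. So few pairs cannot show whether the numbers pair the samples. Depth per library limits what can be said of Igf1r, Igf2 and other genes below 0.5 FPKM.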

Other observations

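Some genes that respond to insulin or to FOXO factors varied between livers of 1 genotype by more than the genotypes differed; those given here were chosen after their values were seen. Ppargc1a, a coactivator of gluconeogenesis, was at 4.82, 11.3, 5.45, 14.3 and 12.6 FPKM in KO livers, against 3.58, 7.59, 11.6, 3.36 and 2.46 FPKM in WT livers, a 5.8-fold range over the libraries (limma adjusted p = 0.286). Trib1, a relative of Trib3, was at 12.3, 20.7, 10.5, 17.8 and 10.02 FPKM in KO livers, against 9.18, 19.7, 23.05, 9.2 and 12.8 FPKM in WT livers. KO 2, KO 4, WT 2 and WT 3 were the highest in Trib1. Txnip, which insulin and glucose regulate, was at 23.7, 28.4, 50.8, 22.7 and 49.4 FPKM in KO livers, against 67.05, 24.55, 28.2, 65.6 and 67.1 FPKM in WT livers. Of all libraries but KO 1, the same 4 were the lowest in Txnip.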
